A study of Homo sapiens with 6 samples.

Results

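The genes described here encode the core AP-1 transcription factors: the JUN family (JUN, JUNB and JUND), the FOS family (FOS, FOSB, FOSL1 and FOSL2) and the related factor ATF3. These 8 genes were chosen by name from the 63299 genes of the count table, and all 8 were found on ordinary chromosomes. RNA sequencing was done on LNCaP, a prostate cancer cell line of human origin with an active androgen receptor, in which a short hairpin RNA against MEP50 is switched on by doxycycline. MEP50, encoded by WDR77, is the binding partner of the arginine methyltransferase PRMT5. The 3 knockdown libraries came from cells with doxycycline (MEP50 KD, Dox+) and the 3 control libraries from cells without it (No KD, Dox-). The groups therefore differ in doxycycline as well as in MEP50, and the parts of the drug and of the knockdown cannot be told apart. The series describes the 3 libraries of a group as biological replicates of 1 cell line. The labels give neither the hairpin's sequence, nor whether the line is 1 clone, nor the dose or duration of the drug.

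AP-1 is a dimer of basic leucine zipper proteins. JUN proteins pair with each other or with FOS proteins, whereas FOS proteins need a JUN partner to bind DNA. The genes of FOS, FOSB, JUN, JUNB and ATF3 are classic immediate-early or stress-response genes, whose RNA rises within minutes of growth factor, kinase or stress signals and decays quickly. In prostate epithelium AP-1 is known to meet the androgen receptor, since JUN and FOS proteins can bind the receptor or act at its enhancers.

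The AP-1 genes are themselves known to be controlled through AP-1-like words in their promoters, so the windows around their start sites were searched, and the stretches that hold a match are shown. Windows ran from 250 bases before to 50 bases after each RefSeq start (GRCh38.p14). Of the 8 members, 7 matched by symbol, and ATF3 had 2 entries. FOSL1 was not matched. The AP-1 word TGACTCA, searched on both strands, was in 1 of the 8 member windows, that of FOSL2, and in 4.95% of all 35116 windows. The cyclic AMP response word TGACGTCA was in the JUND window and in 1.85% of all windows. The variant TGACATCA was in the JUN window, in 1 ATF3 window and in 2.61% of all windows. The CArG box, the word bound by serum response factor, was in 0 of the 8 member windows and in 1.29% of all windows. Bases more than 250 before a start were not searched, so a window without a word does not show that the gene's promoter lacks it. Capitals mark the word, and each stretch is written 5′ to 3′ on the strand of its gene.
FOSL2: tgccattgtagTGACTCAtctcgggcaga
JUN: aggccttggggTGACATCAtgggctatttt
JUND: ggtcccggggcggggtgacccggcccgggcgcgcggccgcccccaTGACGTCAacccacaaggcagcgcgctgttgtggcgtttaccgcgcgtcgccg
ATF3: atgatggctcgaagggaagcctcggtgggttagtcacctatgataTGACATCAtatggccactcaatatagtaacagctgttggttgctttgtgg
The FOSL2 and JUN stretches lie inside those genes' spans in the count table, and the JUND and ATF3 stretches lie upstream of theirs. The FOSL2 stretch is chr2:28392851-28392879 on the plus strand, with the word at bases 5 to 11 after the start. The JUN stretch is chr1:58784096-58784125 on the minus strand, with the word at bases -67 to -60. The JUND stretch is chr19:18281770-18281867 on the minus strand, with the word at bases -200 to -193. The ATF3 stretch is chr1:212565239-212565333 on the plus strand, with the word at bases -123 to -116. The JUN window and 1 of the 2 ATF3 windows hold the same word, and whether it bears on the levels of these genes was not tested. A match describes letters only, and no binding was measured here.

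Among the tested AP-1 genes, JUN had the largest fold change and ATF3 the smallest, although FOS, FOSB or JUNB exceeded JUN in 4 of the 6 omissions of a library (knockdown replicate 2 and each control). JUN was called higher after knockdown, at 2.41-fold, and FOS was 2.17-fold higher in mean level without passing the main test. Of the 7 members with enough reads for testing, 1 was called higher and 0 lower at an adjusted p under 0.05 (edgeR quasi-likelihood test, Benjamini-Hochberg over 21101 genes), beside 2.72% of all tested genes called higher and 4.88% called lower. At an unadjusted p under 0.05, 3 members were higher (JUN, FOS and FOSB) and 0 lower. The share of all tested genes at that threshold was not computed, so these counts have no share beside them. DESeq2 called 1 member higher and 0 lower, beside 834 higher and 1490 lower of 41091 genes. With the replicate number as a block, which compares libraries of the same number, 5 were called higher (JUN, JUNB, JUND, FOS and FOSL2) and 0 lower, beside 11.2% and 14.9% of all tested genes. All 7 fitted log2 fold changes were positive, with a median of 0.87, beside a median of 0.0023 over all tested genes. FOSL1, left out for its few reads, is in none of these counts. The groups did not overlap for 4 members, all with the knockdown higher (JUN, FOS, FOSB and FOSL2), beside 13.4% of all tested genes with the knockdown higher and 17% with it lower. FOSB passed the filter on low counts only with knockdown libraries counted. Its place in these counts and among the 7 positive values therefore supports nothing. The count of 1 called without the block fell to 0 when knockdown replicate 2, control replicate 1 or control replicate 3 was left out. Over all tested genes, those omissions called 168, 325 and 241 higher, in that order, against 574 with all libraries. In bulk RNA, fewer cells expressing a gene and less of its RNA per cell cannot be told apart.

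The libraries held 18568002 to 36234784 reads on genes. WDR77 held 12.7 to 15.0 CPM (read counts scaled to a common library size) in the knockdown libraries and 36.7 to 49.3 CPM in the controls, and its log2 fold change was -1.67. All 9 luminal prostate markers were tested, and their summed level was 3916 to 4337 CPM after knockdown and 6629 to 8153 CPM in controls. KLK3 had the highest mean over all libraries, although FOLH1 exceeded it in knockdown replicates 1 and 3. Basal markers summed to at most 0.275 CPM after knockdown and 1.14 CPM in controls, with KRT5 at 0 in every library. Immune markers summed to 0.676 to 0.870 CPM and 0.628 to 0.970 CPM, and stromal markers to 15.3 to 21.3 CPM and 9.89 to 17.7 CPM. Of the endothelial markers, PECAM1 and CDH5 were at most 0.0535 CPM, and VWF carried nearly all of the sum of 10.5 to 26.0 CPM after knockdown and 18.6 to 39.1 CPM in controls. The part of these shifts in the AP-1 values was not tested.

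**Figure D1:**
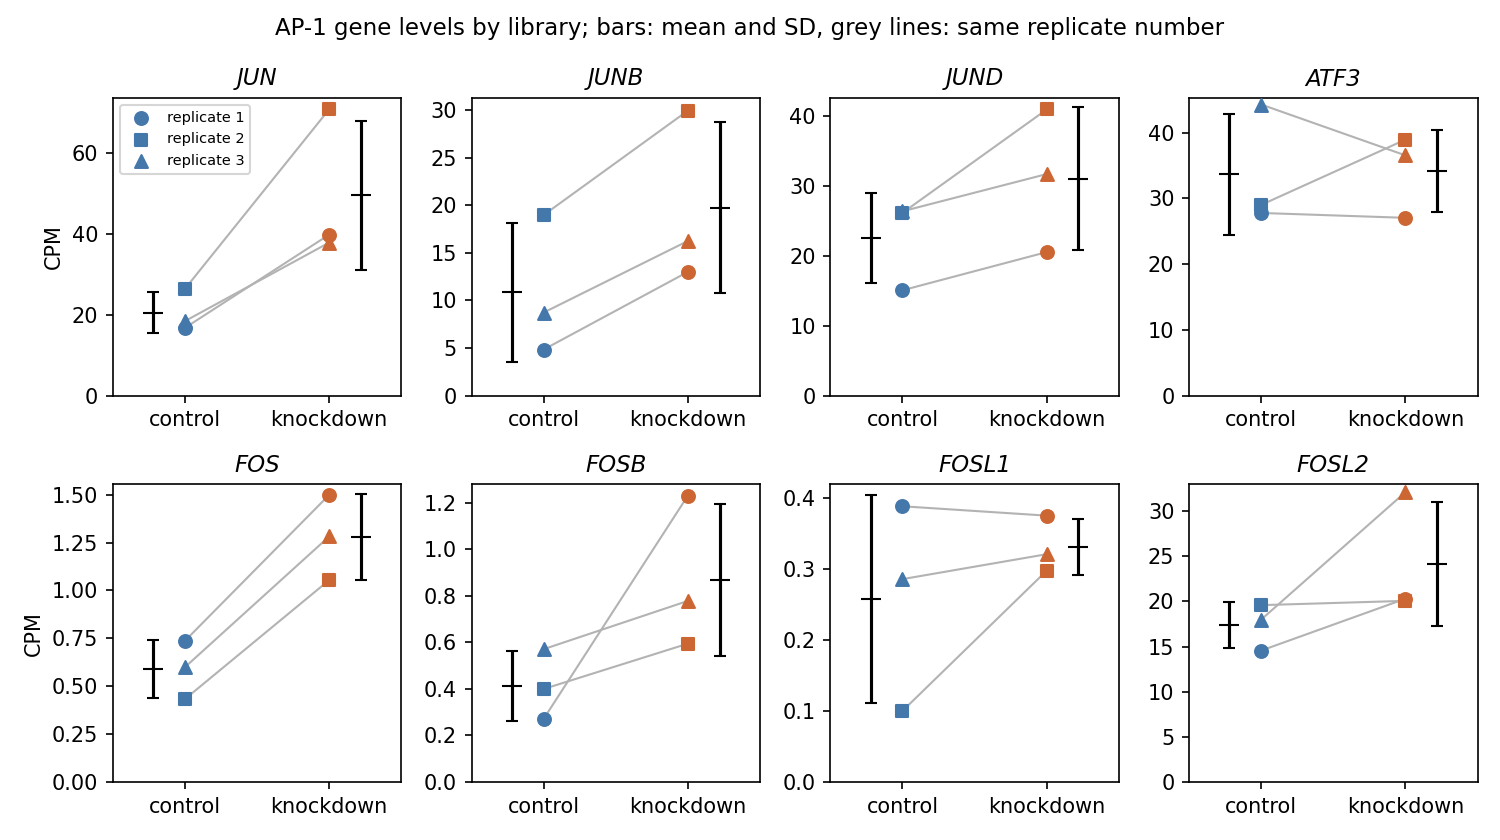
Level of each AP-1 gene in CPM (y axis, from 0, its own scale in each panel) in the control and knockdown libraries. Points are libraries, shapes are replicate numbers, grey lines join equal numbers, and the black bars give the mean and SD of 3 libraries. JUN rises along all 3 lines, from 16.8 to 39.9, 26.5 to 70.9 and 18.5 to 37.9 CPM, whereas the ATF3 lines cross.

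JUN is the founding member of the family and the usual partner of FOS proteins (ENSG00000177606.6, chr1:58780788-58784327, hg38, minus strand, a gene of 1 exon). Its level was 39.9, 70.9 and 37.9 CPM in knockdown replicates 1, 2 and 3, from 745, 2624 and 828 reads, and 16.8, 26.5 and 18.5 CPM in control replicates 1, 2 and 3, from 433, 795 and 647 reads. Every knockdown library was above every control library, and replicate 2 was the highest of both groups. JUN rose from a control mean of 20.6 ± 5.17 CPM to 49.6 ± 18.5 CPM (mean ± SD, n = 3 in each group), a log2 fold change of 1.27 (SE 0.27, 95% interval 0.66 to 1.88, adjusted p 0.0260, edgeR). Within pairs of the same number the log2 difference was 1.25, 1.42 and 1.04, and the block gave 1.24 (SE 0.12, adjusted p 1.26e-05). The call without the block was lost when knockdown replicate 2 (log2 fold change 0.92, adjusted p 0.0776), control replicate 1 (1.19, 0.0574) or control replicate 3 (1.19, 0.0863) was left out, with values from 0.92 to 1.47 over the 6 omissions.

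JUNB, which often opposes JUN on growth genes and is known as a brake on proliferation, spread most between replicates (ENSG00000171223.5, chr19:12791496-12793315, plus strand). It stood at 13.0, 30.0 and 16.3 CPM in knockdown replicates 1, 2 and 3 and at 4.85, 19.0 and 8.73 CPM in the controls. Control replicate 2 lay above knockdown replicates 1 and 3, so the groups overlapped, but each knockdown library was above the control of its own number. The mean was 19.7 ± 8.99 CPM after knockdown and 10.9 ± 7.30 CPM in controls, with a log2 fold change of 0.87 (SE 0.47, 95% interval -0.19 to 1.92, adjusted p 0.290, edgeR). With the replicate block JUNB rose by 0.96 (SE 0.16, adjusted p 0.000698), and the pairs differed by 1.42, 0.66 and 0.90. The unblocked value ran from 0.43 without knockdown replicate 2 to 1.52 without control replicate 2. Without a filter on low counts the unblocked fit also called it (0.88, adjusted p 0.00102). JUNB lies over HOOK2 on the opposite strand, which held 43.2 to 68.9 CPM over the 6 libraries. Without a stated strand setting, reads of these genes cannot be told apart where they overlap. HOOK2 had a log2 fold change of -0.09 (adjusted p 0.813).

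JUND, the most constantly expressed JUN protein in most tissues, was the highest AP-1 gene per length in controls (ENSG00000130522.5, chr19:18279760-18281622, minus strand). It held 20.6, 41.0 and 31.7 CPM after knockdown and 15.1, 26.2 and 26.4 CPM in controls, for replicates 1, 2 and 3. The lowest knockdown library was below control replicates 2 and 3, so the groups overlapped. Its log2 fold change was 0.46 (SE 0.28, 95% interval -0.18 to 1.11, adjusted p 0.350, edgeR), from 22.6 ± 6.47 to 31.1 ± 10.2 CPM. With the replicate block it was called higher at 0.45 (SE 0.12, adjusted p 0.0154), and that call ended when offsets for GC content were added to the block (0.33, adjusted p 0.0991). The unblocked value ran from 0.21 without knockdown replicate 2 to 0.68 without knockdown replicate 1.

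FOS, the textbook immediate-early gene, was at low level throughout (ENSG00000170345.9, chr14:75278774-75282230, plus strand). The knockdown libraries held 28, 39 and 28 reads, or 1.499, 1.05 and 1.28 CPM, and the controls held 19, 13 and 21 reads, or 0.737, 0.433 and 0.599 CPM. No control reached the lowest knockdown library. The mean was 1.28 ± 0.22 CPM after knockdown and 0.59 ± 0.15 CPM in controls, and the fitted change on the log2 scale was 1.10 (SE 0.32, 95% interval 0.38 to 1.83, adjusted p 0.0699, edgeR). With the replicate block FOS was called higher at 1.13 (SE 0.31, adjusted p 0.0160), and the pairs differed by 1.02, 1.28 and 1.10. Offsets for GC content, added after seeing the data, also gave a call without the block (1.23, adjusted p 0.0444, edgeR). They level coding genes of like GC content between all libraries, and so between the groups too. Coding genes in the GC class of FOS had a median log2 fold change of -0.12 before the offsets.

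FOSB, another immediate-early FOS gene, had fewer reads than FOS in every library (ENSG00000125740.13, chr19:45467995-45475179, plus strand). The knockdown libraries held 23, 22 and 17 reads, or 1.23, 0.595 and 0.778 CPM, and the controls held 7, 12 and 20 reads, or 0.272, 0.400 and 0.571 CPM. The lowest knockdown library was just above the highest control, and most of the gap lay in replicate 1, whose pair differed by 2.18 on the log2 scale against 0.57 and 0.45 in the other two. The fit gave a log2 fold change of 1.00 (SE 0.42, adjusted p 0.176, edgeR), and 0.99 with the replicate block (adjusted p 0.0938), so FOSB was not called in either fit. Control replicate 1, with 7 reads, fell short of the filter on low counts. FOSB was thus tested only because knockdown libraries also counted towards that filter. ERCC1, on the opposite strand over FOSB, held 45.9 to 68.3 CPM, with a log2 fold change of -0.40 (adjusted p 0.0881). Reads in the overlap cannot be assigned to 1 of the 2 genes without strand.

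FOSL1 (FRA-1), a FOS protein linked to invasive growth in many carcinomas, had too few reads to be tested (ENSG00000175592.8, chr11:65892049-65900573, minus strand). The knockdown libraries held 7, 11 and 7 reads and the controls 10, 3 and 10. The levels overlapped, at 0.331 ± 0.040 CPM after knockdown and 0.258 ± 0.146 CPM in controls. A fit without the filter on low counts gave a log2 fold change of 0.34 (adjusted p 0.790, edgeR).

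FOSL2 (FRA-2) was the most abundant FOS family gene in every library (ENSG00000075426.11, chr2:28392448-28417312, plus strand). It held 20.3, 20.1 and 32.1 CPM after knockdown and 14.6, 19.6 and 18.0 CPM in controls, for replicates 1, 2 and 3. The groups did not overlap, but knockdown replicate 2 stood only just above control replicate 2, and knockdown replicate 3 stood apart above the rest. The mean was 24.2 ± 6.88 CPM after knockdown and 17.4 ± 2.57 CPM in controls. The fit gave a log2 fold change of 0.47 (SE 0.22, adjusted p 0.220, edgeR), and with the replicate block 0.45 (SE 0.15, adjusted p 0.0447), with pair differences of 0.48, 0.03 and 0.84. Leaving out 1 library at a time moved the unblocked value between 0.21 and 0.59. The genes FLJ31356 and AC104695.3, which overlap FOSL2, were at most 0.321 CPM in any library.

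ATF3, a stress-induced partner of JUN proteins that often acts as a repressor, was the member with the smallest difference between the groups (ENSG00000162772.16, chr1:212565334-212620777, plus strand). It held 27.0, 38.9 and 36.5 CPM in knockdown replicates 1, 2 and 3, from 505, 1440 and 798 reads, and 27.8, 29.01 and 44.3 CPM in the controls, from 716, 871 and 1551 reads. The lowest library was a knockdown and the highest a control, so the ranges overlapped. Means were 34.2 ± 6.29 and 33.7 ± 9.19 CPM, and the log2 fold change was 0.02 (SE 0.22, 95% interval -0.47 to 0.51, adjusted p 0.966, edgeR). With the replicate block the interval was -0.26 to 0.33 (adjusted p 0.870), which leaves out a rise of the size measured for JUN. The pairs differed in direction, at -0.04, 0.42 and -0.28.

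**Figure D2:**
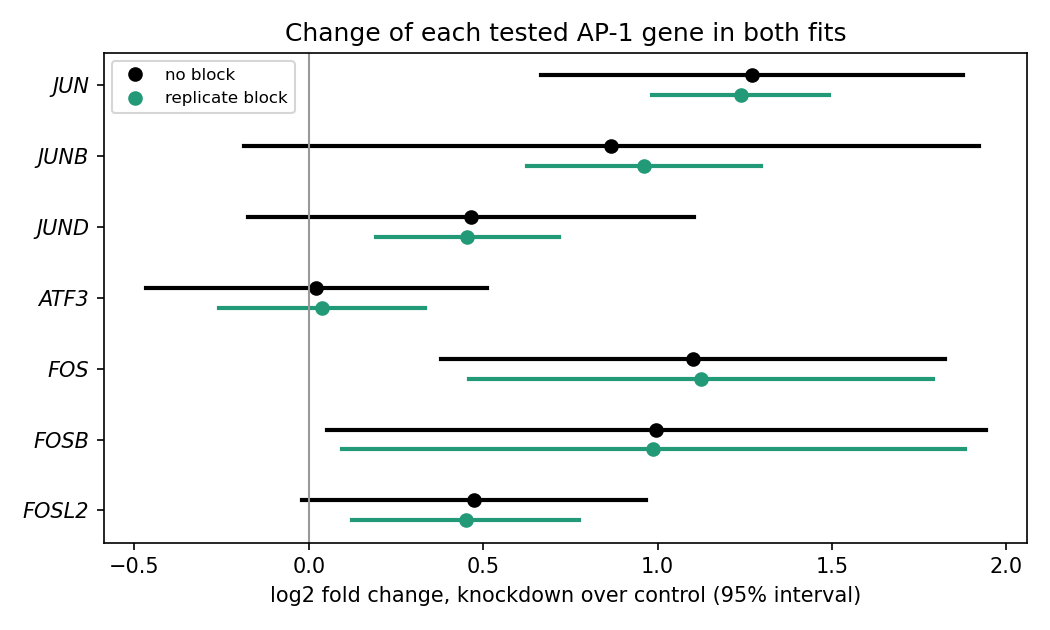
Log2 fold change, knockdown over control (x axis), of the 7 tested AP-1 genes, with 95% intervals, from the fit without a block (black) and the one that adds replicate as a block (green). Block intervals are narrower for all 7 genes, and both ATF3 intervals span 0.

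Levels between genes were compared per kilobase of annotated exon length (RPKM). In controls the mean order was JUND at 12.1, ATF3 at 8.34, JUNB at 5.96, JUN at 5.81, FOSL2 at 2.43, FOS at 0.182, FOSL1 at 0.137 and FOSB at 0.0746 RPKM. Neighbours from JUND to JUN overlapped in their control ranges, as did FOS with FOSL1 and FOSL1 with FOSB. JUN stood clear of FOSL2, and FOSL2 of FOS. JUND was thus at percentile 77.5 of all tested genes in controls and FOSB at percentile 1.55, so the FOS and FOSB values rest on few reads. After knockdown the means were 16.7 RPKM for JUND, 14.01 for JUN, 10.8 for JUNB, 8.46 for ATF3, 3.37 for FOSL2 and 0.395 for FOS. The rank of JUN among the 8 genes was 3 in all control libraries, and 1, 2 and 2 in knockdown replicates 1, 2 and 3.

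The members were also compared with each other inside each library. The JUN to JUND ratio of RPKM was 1.02, 0.911 and 0.629 in knockdown replicates 1, 2 and 3 and 0.586, 0.532 and 0.368 in the controls, so the ranges did not overlap. The ratio of JUN to ATF3 was 1.68, 2.08 and 1.18 after knockdown and 0.690, 1.04 and 0.476 in controls, again without overlap. The ratio of JUN to JUNB was 1.58, 1.22 and 1.199 after knockdown and 1.78, 0.717 and 1.09 in controls, so these ranges overlapped and pair 1 ran the other way. JUN made up 38.3%, 34.3% and 29.2% of the summed RPKM of the 3 JUN genes after knockdown and 30.6%, 23.4% and 21.6% in controls, higher in each pair although the ranges overlapped. These are ratios within libraries, given as descriptions without a test. Within the FOS family FOSL2 held 76.2% to 86.4% of the summed RPKM after knockdown and 80.8% to 91.4% in controls.

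**Figure D3:**
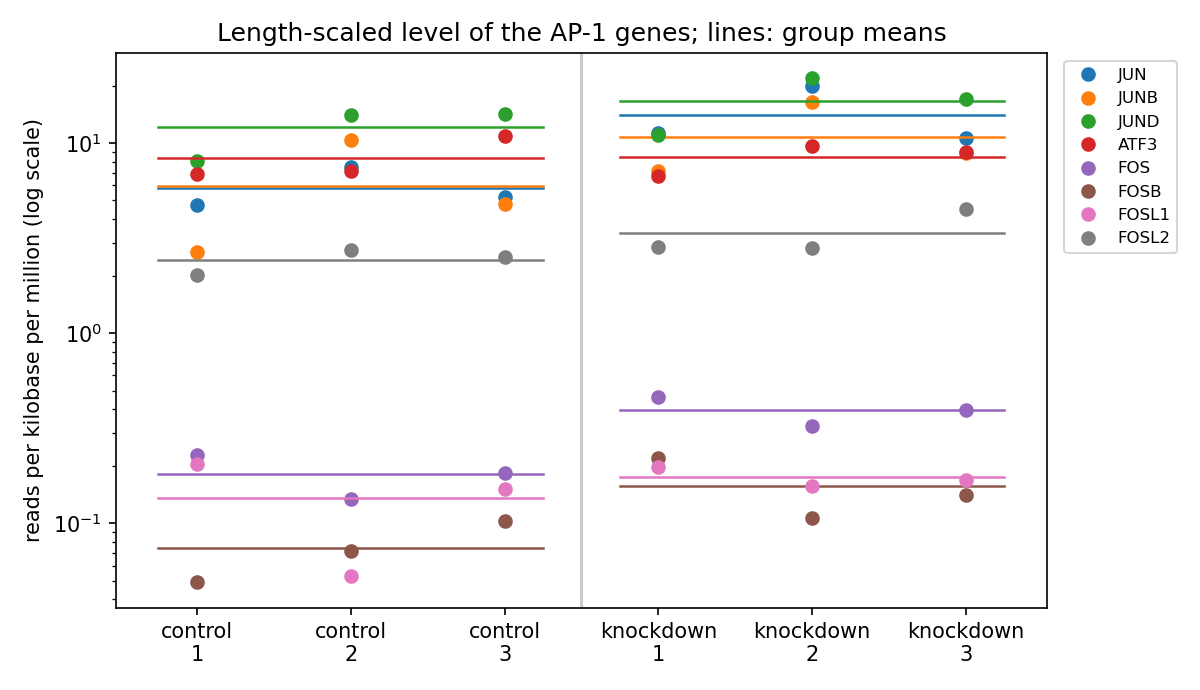
Level of the 8 AP-1 genes in each library in RPKM (y axis, log scale), controls on the left and knockdown on the right, with a line at each group mean. JUND, JUN, JUNB and ATF3 form an upper group with FOSL2 below it, and FOS, FOSL1 and FOSB lie far below, at most at 0.463 RPKM.

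JUN and JUNB deviated alike between replicates in both groups. Relative to its group mean on the log2 scale, JUNB was at -0.51, 0.69 and -0.19 in knockdown replicates 1, 2 and 3 and at -0.93, 1.02 and -0.09 in the controls. JUN was at -0.25, 0.58 and -0.33 after knockdown and -0.26, 0.39 and -0.13 in controls. Replicate 2 was thus the high one for both genes in both groups. JUNB's SD between controls was at percentile 98.1 of all tested genes.

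The JUN genes are single-exon genes. Their GC content was 56.7% for JUN, 64.9% for JUNB and 69.7% for JUND, and that of the others was 60.0% for FOSL1, 57.7% for FOSB, 53.3% for FOSL2, 52.6% for FOS and 46.7% for ATF3. When tested coding genes were split by GC content into 10 classes of equal size, JUNB and JUND fell in the GC-richest (61.8% to 76%). The median gene of that class deviated by -0.17, 0.18 and -0.03 in knockdown replicates 1, 2 and 3 and by -0.37, 0.44 and -0.06 in the controls. JUNB had this order of replicates in both groups, whereas JUND, at -0.54, 0.45 and 0.09 after knockdown and -0.53, 0.26 and 0.27 in controls, had it only after knockdown. Its median log2 fold change between groups was 0.12, with 1.11% of its genes called higher and 1.54% lower. JUN and FOSB fell in class 8, where the median deviations were between -0.06 and 0.08 and the median log2 fold change was -0.11. With GC offsets JUN had a log2 fold change of 1.40 (adjusted p 0.0152, edgeR), and 1.35 with the block added (adjusted p 2.75e-05). JUNB had 0.83 with GC offsets (adjusted p 0.128), not called, and 0.85 with the block added (adjusted p 0.000604). These offsets were added after seeing the data. They level the median of each class between all libraries, so they also take out its difference between the groups.

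**Figure D4:**
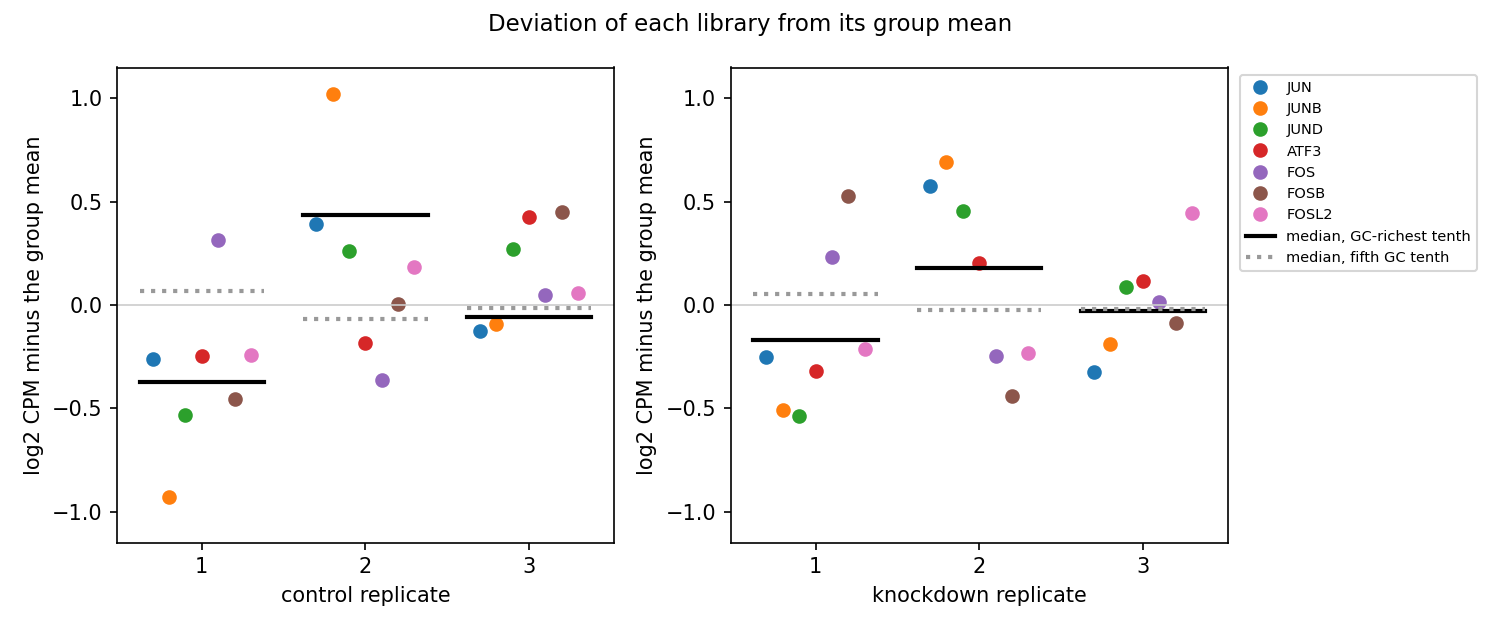
Deviation of each tested AP-1 gene from its group mean (y axis, log2 CPM) in the 3 control (left) and 3 knockdown (right) replicates, with the median of the GC-richest of 10 equal classes of coding genes (solid line) and of class 5 (dotted). JUN, JUNB and JUND lie above 0 in replicate 2 of both groups, on the same side as the solid line.

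Over the 6 libraries, Pearson's r of log2 CPM was 0.873 for JUNB with JUND, 0.867 for JUN with JUNB, 0.753 for FOS with FOSB and 0.146 for JUN with ATF3. These correlations share libraries, depth and the group difference, and are descriptions only. Among 10508 genes of at least 10 CPM, the 5 most like FOS were RSPRY1 (r 0.995), KIAA1109 (0.994), TM7SF3 (0.993), PGM1 (0.990) and MIER1 (0.988). Those most like JUN were RPLP2 (0.989), UBP1 (0.989), CNOT6 (0.988), C2CD2 (0.986) and TNKS2 (0.982). Those most like ATF3 were RCN1 (0.993), ATP5S (0.984), SEPHS2 (0.977), ESYT2 (0.970) and EDEM2 (0.966). These are the highest of 10508 correlations over 6 libraries, and FOS rests on 13 to 39 reads. The sets are therefore descriptions only. No gene was shared between the 3 sets.

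Other genes of the pathway were read from 5 lists. Their edgeR counts stand beside the shares of all tested genes, 2.72% called higher and 4.88% lower, or 11.2% and 14.9% with the replicate block. DESeq2 called 834 higher and 1490 lower of 41091 genes. No such share was computed at an unadjusted p under 0.05, so those counts are given without one. No list was tested against the other genes. Of 32 tested kinases and factors that act upstream of AP-1, 0 were called higher and 2 lower (edgeR), with 2 higher and 11 lower at an unadjusted p under 0.05, 1 higher and 5 lower by DESeq2, and 3 higher and 11 lower with the replicate block. The 2 lower calls are near the 4.88% of all tested genes. The list median log2 fold change was -0.15, beside 0.0023 over all tested genes. MAP2K1, the MEK1 kinase that activates ERK, held 62.0, 62.2 and 52.3 CPM after knockdown and 120, 110 and 125 CPM in controls. It fell by 1.008 on the log2 scale (SE 0.12, adjusted p 0.00334), without overlap, and was called in all 6 omissions of a library. MAPK13, the p38 delta kinase, fell by 0.97 (adjusted p 0.0327), a call lost in 4 of those 6, those of knockdown replicates 2 and 3 and control replicates 1 and 3 (adjusted p 0.0881 to 0.123). ELK1, the ternary complex factor that drives FOS with serum response factor, was at 18.7 ± 2.22 against 32.0 ± 8.36 CPM (adjusted p 0.0548, and 0.00405 with the block). MKL2 (MRTFB), a cofactor of serum response factor, was at 131 ± 6.34 against 89.9 ± 16.1 CPM (adjusted p 0.0535, and 0.00385 with the block).

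Of 29 listed immediate-early genes outside AP-1, 23 were tested, with 1 called higher and 0 lower (edgeR), 7 and 2 at an unadjusted p under 0.05, 3 and 0 by DESeq2, and 10 and 2 with the replicate block. The 1 call without the block is near the 2.72% of all tested genes, and the 10 with it stand beside 11.2%. The median was 0.41, beside 0.0023 over all tested genes, and 18 of the 23 values were positive. No share of positive values was computed over all tested genes. EGR1, ID1, KLF2 and NR4A3, all positive, passed the filter on low counts only with knockdown libraries counted. Their place in the median and among the 18 therefore supports nothing. BTG2, an antiproliferative gene that p53 can induce, held 134, 119 and 131 CPM after knockdown and 41.1, 42.8 and 36.9 CPM in controls. It rose by 1.67 on the log2 scale (SE 0.12, adjusted p 0.000614), with no overlap. EGR1, a zinc finger factor induced alongside FOS, was scarcer than FOS in both groups, at 0.627 ± 0.138 against 0.125 ± 0.118 CPM, with 0 reads in control replicate 1. It passed the filter on low counts through the knockdown libraries alone. Its place among the 10 genes called with the block, and among the 7 at an unadjusted p under 0.05, therefore supports nothing. ZFP36L1, which speeds the decay of AU-rich mRNAs, was at 20.8 ± 7.30 against 9.56 ± 2.95 CPM (adjusted p 0.0545, and 0.000488 with the block). CYR61 had a log2 fold change of -0.66 (adjusted p 0.110, and 0.0190 with the block). The other genes that the block called, named after their values were seen, were ID1, ID3, KLF4, IER2, IER5, DUSP1 and GADD45B, all higher, and NR4A1, lower. For ID1, control replicate 3, with 11 reads, fell short of the filter, so the place of ID1 among the 10 also supports nothing.

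Of 30 other basic leucine zipper genes listed, 25 were tested, with 1 called higher and 0 lower (edgeR), 2 and 2 at an unadjusted p under 0.05, 1 and 1 by DESeq2, and 2 and 4 with the block, around a median of 0.04. The edgeR counts at an adjusted p under 0.05 are near the shares of all tested genes, 2.72% and 4.88%, or 11.2% and 14.9% with the block. NFE2L1 had a log2 fold change of -0.62 (adjusted p 0.0571, and 0.00125 with the block), CREM -0.49 (0.125, and 0.0273) and BACH1 0.34 (0.126, and 0.0261). The block also called MAF and JDP2 lower. Both were named after their values were seen.

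Of 14 genes for the turnover and cofactors of AP-1 proteins, 0 were called higher and 0 lower (edgeR), 2 and 2 at an unadjusted p under 0.05, 0 and 0 by DESeq2, and 2 and 2 with the block, around a median of -0.07. The counts with the block are near the 11.2% and 14.9% of all tested genes. FBXW7, the ubiquitin ligase part that marks JUN for degradation, had a log2 fold change of 0.41 (adjusted p 0.108, and 0.0141 with the block). TSC22D3, the glucocorticoid-induced zipper protein that binds AP-1, had 0.54 (0.111, and 0.0126). GSK3B, a kinase that primes JUN for that ligase, had -0.37 (0.150, and 0.0244), and PIAS1 had -0.35 (0.128, and 0.0323).

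Of 34 listed genes known elsewhere as AP-1 targets, 15 had enough reads for testing, with 1 called higher and 2 lower (edgeR) and 2 higher and 4 lower with the block, around a median of -0.02. All tested genes gave 2.72% and 4.88%, or 11.2% and 14.9% with the block. CCND1, the cyclin that drives entry into S phase, held 122, 175 and 150 CPM after knockdown and 252, 350 and 293 CPM in controls. It fell by 1.00 on the log2 scale (SE 0.17, adjusted p 0.0118), without overlap, and was called in all 6 omissions. KRT18, a luminal keratin, fell by 0.59 (adjusted p 0.0168), from 409 ± 5.12 to 272 ± 10.7 CPM. Its call was kept in 1 of 6 omissions, that of control replicate 2, with log2 values from -0.62 to -0.56. VIM, the mesenchymal filament vimentin, rose by 2.35 (SE 0.50, adjusted p 0.0277), from 3.69, 1.599 and 1.86 CPM to 22.3, 6.92 and 7.19 CPM, with replicate 1 the highest in both groups. The VIM call was lost without control replicate 2 (adjusted p 0.0688) or control replicate 3 (0.0947), and its value ran from 1.57 without knockdown replicate 1 to 2.83 without control replicate 1. TXNRD1 had a log2 fold change of -0.45 (adjusted p 0.0735, and 0.0137 with the block). The collagenase genes MMP1 and MMP13, the interleukin genes CXCL8 and IL6, and PLAU were among the 19 targets with too few reads.

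**Figure D5:**
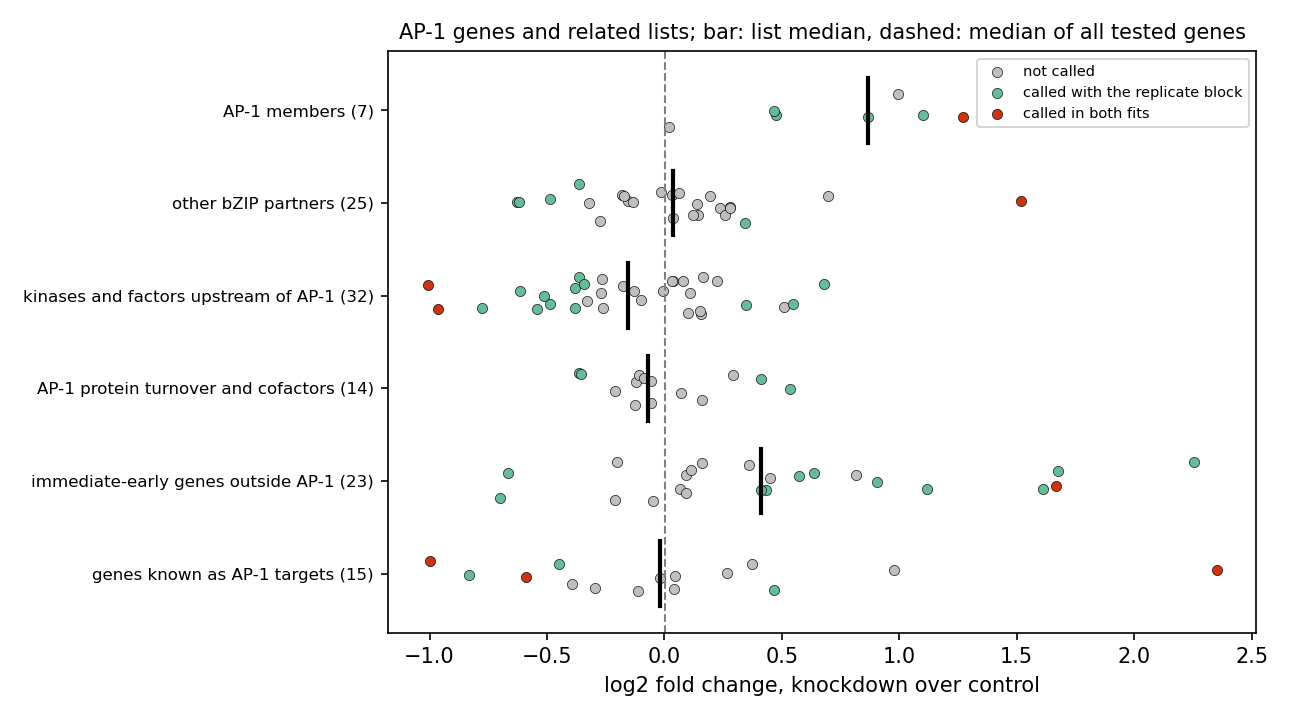
Log2 fold change, knockdown over control (x axis), of every tested gene of the AP-1 members and the 5 related lists (rows, number tested in brackets), with a bar at each list median and a dashed line at the median of all tested genes. The AP-1 members (median 0.87) and the immediate-early genes (0.41) lie mostly right of the line, and the upstream kinases and factors (-0.15) mostly left. In the AP-1 and immediate-early rows, FOSB, EGR1, ID1, KLF2 and NR4A3 passed the filter only with knockdown libraries counted, so their points support nothing.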

How the data were processed

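The authors deposited 1 table of read counts, whole numbers for each gene in 6 libraries. Per the submitters' processing notes, the authors used bcl2fastq, STAR 2.5, featureCounts of Subread 1.6.5, edgeR 3.20.8 and build hg38. The strand setting of the counting is not given in the sources used here. All 63299 rows had a gene name.

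Counts were tested with edgeR 4.0.16 in R 4.3.3. TMM scaling, filterByExpr (minimum count 10) with the group, and a two-sided quasi-likelihood F test of knockdown against control were used, with Benjamini-Hochberg adjustment over 21101 genes and a threshold of 0.05. The biological coefficient of variation was 20.8% without and 11.95% with the replicate block. CPM are TMM-scaled, and RPKM divide them by the deposited exon length. Alternatives were the replicate block, RLE size factors, DESeq2 1.42.0, no filter, each library left out and, added after seeing the data, GC offsets over 10 classes. The code was tested on simulated data.

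Replicate numbers come from the labels. Deviations of same-numbered libraries from their group means correlated at 0.554, 0.381 and 0.358 over genes, so the numbers were taken to pair the libraries. Libraries of different numbers correlated at -0.390 to 0.0602. Deviations from a group mean sum to 0, so these values depend on the first ones. The pairing was thus read from these same data. The block left 2 residual degrees of freedom, against 4 without it.

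Members and lists were chosen with earlier results of these data known. Named genes are the 8 members, WDR77, the 4 of smallest p in each of 5 lists, and the 5 most like FOS, JUN and ATF3. Some genes of the lists are not reported here by name. Gene spans and types are those of GENCODE 29, and promoter windows are from RefSeq.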

Additional observations from a re-analysis of the deposited data

How the results depend on the processing

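With 3 libraries per group and few reads for FOS, FOSB and FOSL1, only large differences of these genes could be called. Over the alternatives run, the number of AP-1 members called higher was 5 with the replicate block, 2 without the filter on low counts, 2 with GC offsets and 4 with GC offsets and the block, against 1 in the reported fit, and 0 to 1 with 1 library left out. RLE size factors and DESeq2 left it at 1, and none of these alternatives called a member lower. The log2 fold change of ATF3 turned negative without knockdown replicate 2 (-0.083), knockdown replicate 3 (-0.032), control replicate 1 (-0.065) and control replicate 2 (-0.091), with adjusted p from 0.828 to 0.960 (edgeR), and ran from -0.091 to 0.263 with 1 library left out. None of the other tested members, WDR77 or the 4 genes of smallest p in each list changed sign. The other named genes were not followed through the alternatives.

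In the related lists the replicate block also gave the larger counts. For other basic leucine zipper genes called higher, the count was 2 with the block, 2 without the filter and 4 with GC offsets and the block, against 1, and 1 to 2 with a library left out. Those called lower were 4, 1 and 3 in the same order and 1 by DESeq2, against 0. For upstream kinases and factors called higher, the count was 3 with the block, 1 with RLE, 1 by DESeq2, 2 without the filter, 1 with GC offsets and 3 with both, against 0, and 0 to 1 with a library left out. Those called lower were 11 with the block, 5 by DESeq2, 4 without the filter and 10 with GC offsets and the block, against 2, and 1 to 2 with a library left out. For turnover genes and cofactors called higher, the count was 2 with the block, 1 without the filter, 1 with GC offsets and 2 with both, against 0, and 0 to 1 with a library left out. Those called lower were 2 with the block and 2 with both, against 0. For immediate-early genes called higher, the count was 10 with the block, 2 with RLE, 3 by DESeq2, 6 without the filter, 4 with GC offsets and 10 with both, against 1, and 1 to 2 with a library left out. Those called lower were 2 with the block and 2 with both, against 0. For AP-1 targets called higher, the count was 2 with the block, 2 without the filter and 3 with GC offsets and the block, against 1, and 0 to 2 with a library left out. Those called lower were 4 with the block and 4 with both, against 2, and 1 to 3 with a library left out. Over all tested genes, the block called 2358 higher and 3148 lower against 574 and 1029, and GC offsets gave 861 and 1071. GC offsets with the block gave 3043 higher and 2904 lower, which turned the balance. RLE gave 608 and 948. Over 41091 genes, DESeq2 gave 834 and 1490, and the fit without the filter gave 1336 and 1812. With 1 library left out, 168 to 500 genes were called higher and 329 to 923 lower. GC offsets level each GC class between the groups as well as between replicates. The median log2 fold change over all tested genes was 0.0023 in the reported fit and 0.0585 with GC offsets. It was 0.0595 with GC offsets and the block. How far this moved the counts was not tested, nor was the cause of the other shifts.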
